A study of Mus musculus with 30 samples.

Results

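Transcript counts were compared between AML12 cells in which FoxK1 and FoxK2 were knocked down together (double knockdown, DKD) and cells in which FoxK2 alone was knocked down (FoxK2 KD), both without insulin. The comparison was chosen by its labels: the 4 basal libraries of genotype Double FoxK1/2 KD were set against the 4 basal libraries of genotype Foxk2 KD, 8 of the 30 libraries in the series, and every gene was read. Both groups carried the FoxK2 knockdown, so the question was what reducing FoxK1 added to it. The study sequenced polyA RNA of these cells, of cells with FoxK1 alone knocked down (FoxK1 KD) and of Control cells, in the basal state or after insulin (100 nM for 6 h). All cells were serum starved overnight. The labels give the basal libraries no treatment and a time of 0 min, while the protocol describes mock treatment beside the insulin treatment. A pair of further contrasts that share no library with this one were read beside it: DKD (n = 3) against FoxK2 KD (n = 4) after insulin, and FoxK1 KD (n = 4) against Control (n = 4) at basal. The knockdowns were transient transfections of siRNA, which lower a transcript without deleting the gene, and nothing in the labels says whether replicates were separate cultures, so that p-values measure the spread between these libraries, which may be technical.

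FoxK1 and FoxK2 are closely related forkhead transcription factors that bind DNA through a winged-helix domain, at sites built around the forkhead core AAACA. They are best known as repressors: they recruit Sin3 complexes and occupy promoters of autophagy and other starvation-response genes when nutrients are plentiful, and they also carry Dishevelled proteins into the nucleus and associate with the deubiquitinase BAP1. AML12 is a line of hepatocytes from mice carrying a human TGF-alpha transgene, and such lines keep part of the liver's gene program.

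The cells were checked against markers of liver cell types. The summed level of 10 hepatocyte markers was 658 to 702 CPM (counts scaled to a common library size after TMM normalization) in DKD libraries and 758 to 999 CPM in FoxK2 KD libraries. Hnf4a, the hepatocyte master regulator, and Apob, the structural apolipoprotein of VLDL, made up most of it, while Alb averaged 6.07 CPM in DKD and 20.3 CPM in FoxK2 KD cells. The defining macrophage markers Adgre1, Clec4f and Marco were at 0 in all 8 libraries, as were Pecam1, Kdr, Lyve1 and Clec4g for endothelium and Acta2, Pdgfrb, Lrat and Lum for stellate cells. The 8 macrophage markers summed to 122 to 133 CPM in DKD and 105 to 132 CPM in FoxK2 KD libraries, mostly from Cd14. The 8 endothelial markers reached at most 1.44 CPM in sum and the 8 stellate markers at most 0.574 CPM. The 6 biliary markers summed to 1690 to 1970 CPM in DKD and 1970 to 2230 CPM in FoxK2 KD libraries, carried by Spp1, Krt19 and Sox9, with Epcam at 0. In bulk RNA, fewer cells of a kind and less RNA per cell cannot be told apart.

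Library totals were 2141460 to 3841645 counts in DKD and 3289437 to 4668774 counts in FoxK2 KD cells. DKD replicate 3 was the shallowest library of the series. On a principal component analysis of the 8 libraries, PC1 held 40.6% of the variance and separated the genotypes (−22 to −11.8 for DKD, 12 to 24.9 for FoxK2 KD), while PC2 (13.5%) set DKD replicate 3 at −23 apart from the others. Some genes also split the libraries in a way that did not follow genotype alone. Over the whole series, 52 genes were lower and 83 higher in every one of the 12 Control, FoxK1 KD and FoxK2 KD basal libraries than in all 18 others. The 18 are the DKD basal libraries and all insulin-treated ones. These genes were selected on all 30 libraries. The rule itself put DKD basal libraries beside the insulin-treated ones and fixed the side on which DKD stood of FoxK2 KD cells, so their counts are a description. The rule asked for every library, so genes outside the 52 and 83 can show nearly the same split. Of the 52, 45 were called higher in DKD than in FoxK2 KD cells at basal, and of the 83, 70 were called lower (8.56% and 8.44% over all tested genes). Whether these genes moved with the double knockdown or with something else that the 18 libraries share cannot be told apart, so the values after insulin, where both genotypes belong to the 18, are given beside the basal ones.

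The targeted transcript itself was lower. Foxk1 (ENSMUSG00000056493.9, chr5:142401497-142462011, GRCm38) was counted at 44.2, 49.7, 49.0 and 42.9 CPM in DKD replicates 1 to 4 and at 83.7, 71.5, 66.4 and 58.0 CPM in FoxK2 KD replicates. The groups did not overlap, and DKD cells kept 66.5% of the FoxK2 KD mean. The log2 fold change was −0.59 ± 0.12 (SE; edgeR adjusted p = 0.00105). Here and below, "edgeR adjusted p" is the quasi-likelihood p after Benjamini-Hochberg correction across 11368 genes, and a gene is called where it lies below 0.05. After insulin the difference in Foxk1 was −0.60 (edgeR adjusted p = 0.0725), and in FoxK1 KD against Control cells it was −1.14 (edgeR adjusted p = 6.19e-08). With the GC and length offsets described below, the basal change in DKD against FoxK2 KD was −0.80 (edgeR adjusted p = 4.43e-06). Foxk2 (chr11:121259990-121309896), targeted in both groups, was counted at 52.0, 54.7, 52.3 and 41.9 CPM in DKD and 46.3, 49.4, 50.6 and 42.9 CPM in FoxK2 KD cells. The groups overlapped (0.08 ± 0.10, edgeR adjusted p = 0.615), against 133 to 150 CPM in the 4 Control basal libraries.

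**Figure D1:**
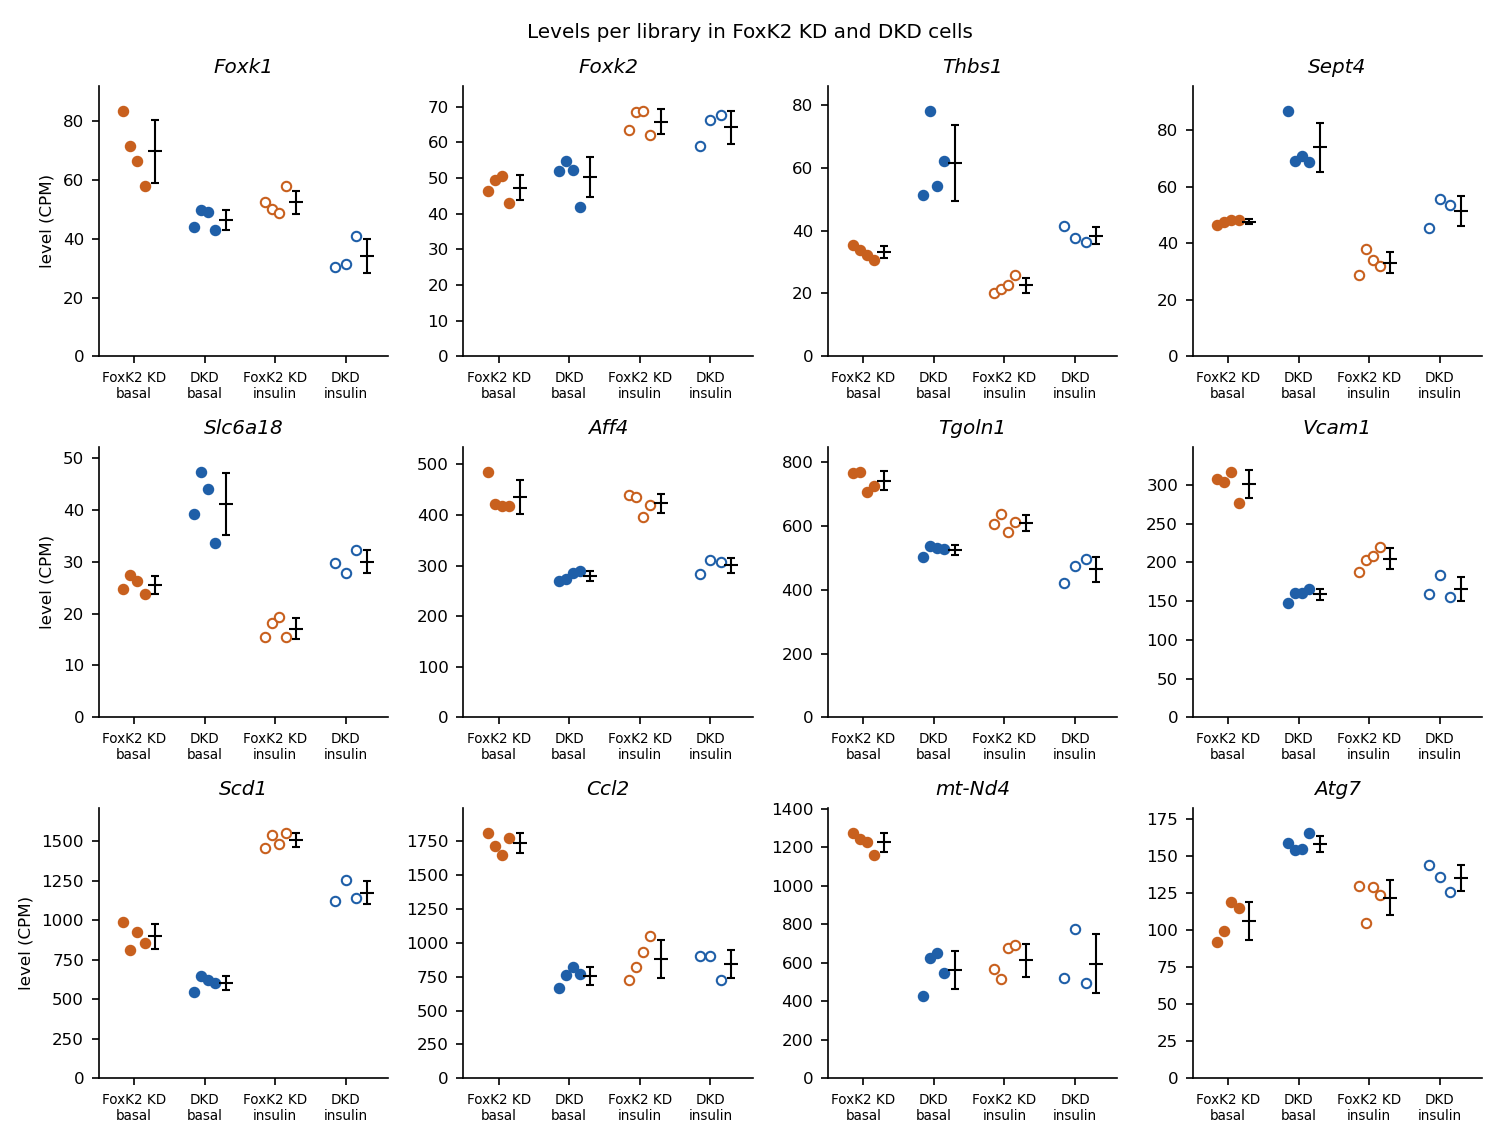
Levels in CPM (y axis, from 0) of 12 genes in FoxK2 KD (orange) and DKD (blue) libraries, basal (filled) and after insulin (open), with 1 point a library and the mean ± SD as a black bar. Foxk1, Aff4 and Tgoln1 were lower and Thbs1, Sept4 and Slc6a18 higher in DKD cells in both states, whereas Ccl2 and mt-Nd4 did not overlap at basal, where FoxK2 KD stood at 1650 to 1815 and 1158 to 1276 CPM, and overlapped after insulin.

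At basal, 973 genes were upregulated (8.56%) and 960 downregulated (8.44%) in DKD against FoxK2 KD cells among 11368 tested, 17% in all. At the adjusted p below 0.25 that the study used, 4599 genes (40.5%) were called. The changes were small: the median of called genes was 0.43 for the upregulated and −0.40 for the downregulated on the log2 scale, and 75 genes rose and 25 fell more than 2-fold. Over all tested genes the median was 0.01. The 4 and 4 libraries did not overlap for 1456 genes higher (12.8%) and 1441 lower (12.7%).

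The direction of change followed base composition. Upregulated genes had a median GC content of 55.9% and downregulated genes of 44.1%, against 50.3% over all tested genes. In the fifth of genes with the lowest GC content (31.2% to 44.8%), 22 genes rose and 564 fell, and in the fifth with the highest (55.8% to 73.7%), 499 rose and 16 fell. The medians of these groups of genes were −0.23 and 0.24 at basal and −0.01 and 0.03 after insulin. Across genes, which are not independent, the Spearman correlation of the fold change with GC content was 0.57 at basal and 0.08 after insulin. Single libraries showed it too: the correlation of a library's deviation from the gene means with GC content was 0.20 to 0.44 in the DKD and −0.38 to −0.05 in the FoxK2 KD basal libraries. When each library's trend on GC content and length was removed by offsets in the same edgeR model, 455 genes were called higher (4%) and 358 lower (3.15%), 7.15% in all. Of the 1933 genes called without offsets, 625 (32.3%) kept their call and direction, 350 higher and 275 lower, and 20 changed sign. The part of sequencing or library preparation in the GC trend was not tested, and values under the offsets ("GC-adjusted") are given beside the results below.

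**Figure D2:**
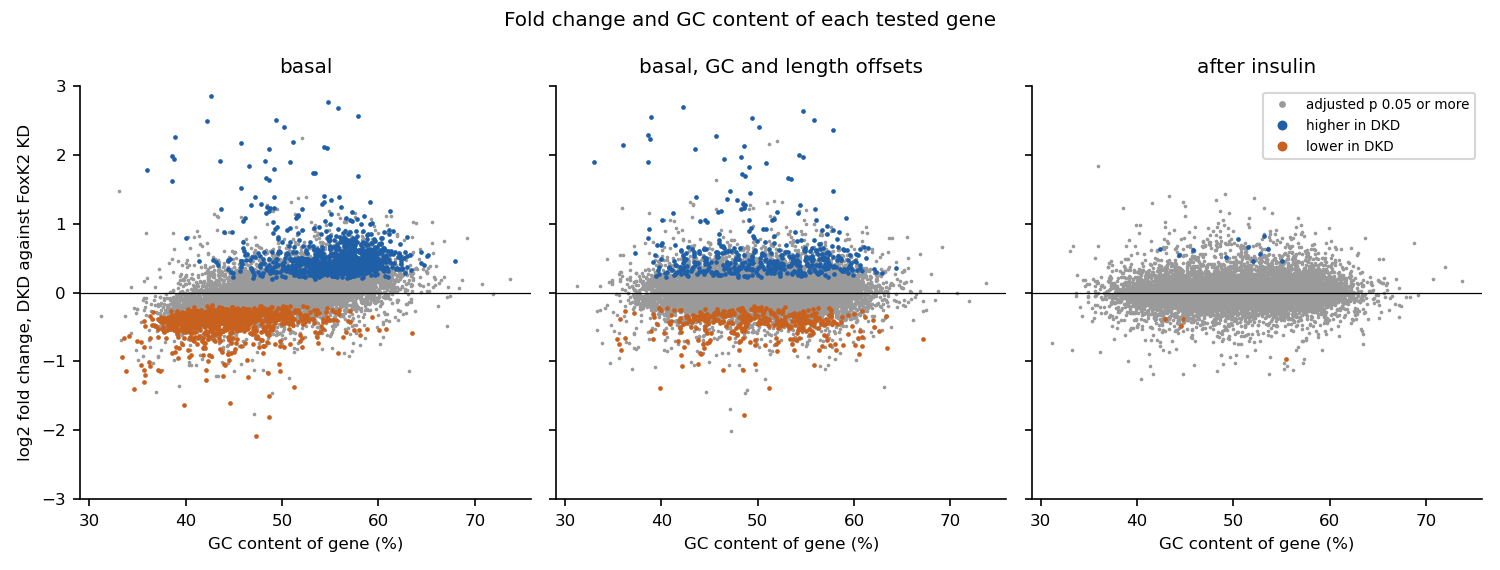
Log2 fold change of DKD against FoxK2 KD (y axis) by GC content of the gene in percent (x axis) for tested genes, at basal, at basal with GC and length offsets, and after insulin; blue and orange points are genes called higher and lower, and 13 genes beyond ±3 are not drawn. The cloud is tilted at basal (correlation 0.57), level with offsets (0.04) and level after insulin (0.08).

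The same genotypes after insulin gave 11 genes higher (0.0968%) and 4 lower (0.0352%), with 654 genes at an unadjusted p below 0.05 against 3619 at basal. The median standard error was 0.14 after insulin and 0.13 at basal. Both came from 1 model in which all groups share the estimate of spread. They therefore do not measure the precision of the insulin libraries on their own. The genes called at basal kept their sign after insulin in 66.7% of cases (69.9% of the upregulated and 63.4% of the downregulated), against 56.7% of all tested genes, but at a small size: their median after insulin was 0.07 and −0.04. Of the 625 genes called with and without offsets, 69.4% kept their sign. Tested directly, the effect differed between basal and insulin for 117 genes (1.03%; 48 with a positive difference, 0.422%, and 69 with a negative one, 0.607%), of which 116 were called at basal.

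In both states, 6 genes were upregulated and 3 downregulated in DKD cells (9 genes, 0.0792%). Thbs1 encodes thrombospondin 1, a matrix glycoprotein that activates latent TGF-beta (chr2:118111876-118127133). It stood at 51.4, 78.2, 54.1 and 62.1 CPM in DKD and 35.5, 33.9, 32.4 and 30.8 CPM in FoxK2 KD replicates. Every DKD library was above every FoxK2 KD library. Its log2 fold change was 0.90 ± 0.11 (edgeR adjusted p = 2.55e-06), 0.92 when GC-adjusted, and 0.78 after insulin (edgeR adjusted p = 0.00601). Sept4 encodes a septin, a filament-forming GTPase (chr11:87568903-87590539). It was counted at 87.0, 69.2, 70.8 and 68.8 CPM in DKD and at 46.6, 47.5, 48.4 and 48.1 CPM in FoxK2 KD cells. The FoxK2 KD replicates were nearly equal and all below DKD, for a change of 0.63 ± 0.10 (edgeR adjusted p = 5.16e-05; GC-adjusted 0.53; after insulin 0.64). Slc6a18, a transporter of neutral amino acids best known from the kidney (chr13:73661752-73678023), stood at 39.3, 47.4, 44.0 and 33.6 CPM against 24.7, 27.5, 26.2 and 23.7 CPM. Its groups did not overlap, and the change was 0.68 ± 0.11 (edgeR adjusted p = 0.000108; GC-adjusted 0.59; after insulin 0.82).

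The other 3 upregulated genes changed less. Ctsf, which encodes the lysosomal protease cathepsin F, was at 152, 142, 136 and 130 CPM in DKD and 109, 113, 106 and 117 CPM in FoxK2 KD cells. Its change was 0.33 ± 0.08 (edgeR adjusted p = 0.00332) and 0.46 after insulin (edgeR adjusted p = 0.0174), but 0.18 when GC-adjusted (edgeR adjusted p = 0.185). Dtna encodes a dystrobrevin of the dystrophin complex and stood at 58.6, 62.2, 57.4 and 58.5 against 50.3, 48.9, 35.4 and 52.5 CPM. Its groups did not overlap and its change was 0.34 ± 0.10 at basal (edgeR adjusted p = 0.0151), 0.51 when GC-adjusted and 0.55 after insulin, and it was called in 6 of 8 fits that each left out 1 library. Bcas3, a cytoskeleton-associated protein, overlapped between groups (95, 91.6, 95.8 and 87.6 against 65.8, 72.2, 89.3 and 70.6 CPM). Its change of 0.31 ± 0.10 (edgeR adjusted p = 0.0245) was called in 2 of 8 such fits and was 0.23 when GC-adjusted (edgeR adjusted p = 0.125).

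Aff4, 1 of the 3 genes lower in both states, encodes a scaffold of the super elongation complex, which releases paused RNA polymerase II (chr11:53350833-53421830). It was counted at 270, 274, 285 and 289 CPM in DKD and 486, 421, 418 and 418 CPM in FoxK2 KD replicates. The groups were far apart relative to their spread, with a change of −0.64 ± 0.07 (edgeR adjusted p = 4.77e-07; GC-adjusted −0.49; after insulin −0.49, edgeR adjusted p = 0.00231). Tgoln1 encodes a membrane protein that cycles through the trans-Golgi network (chr6:72608432-72617000). Its levels were 504, 536, 531 and 529 CPM in DKD and 766, 771, 708 and 726 CPM in FoxK2 KD cells. No library crossed between the groups, and the change was −0.50 ± 0.08 (edgeR adjusted p = 3.71e-05; GC-adjusted −0.31, edgeR adjusted p = 0.0241; after insulin −0.39). Nucks1, a chromatin-associated kinase substrate (chr1:131910534-131936321), was at 197, 226, 235 and 254 against 302, 308, 293 and 302 CPM. It fell by 0.40 on the log2 scale (edgeR adjusted p = 0.000533) and was −0.38 after insulin, but −0.19 when GC-adjusted (edgeR adjusted p = 0.0663).

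**Figure D3:**
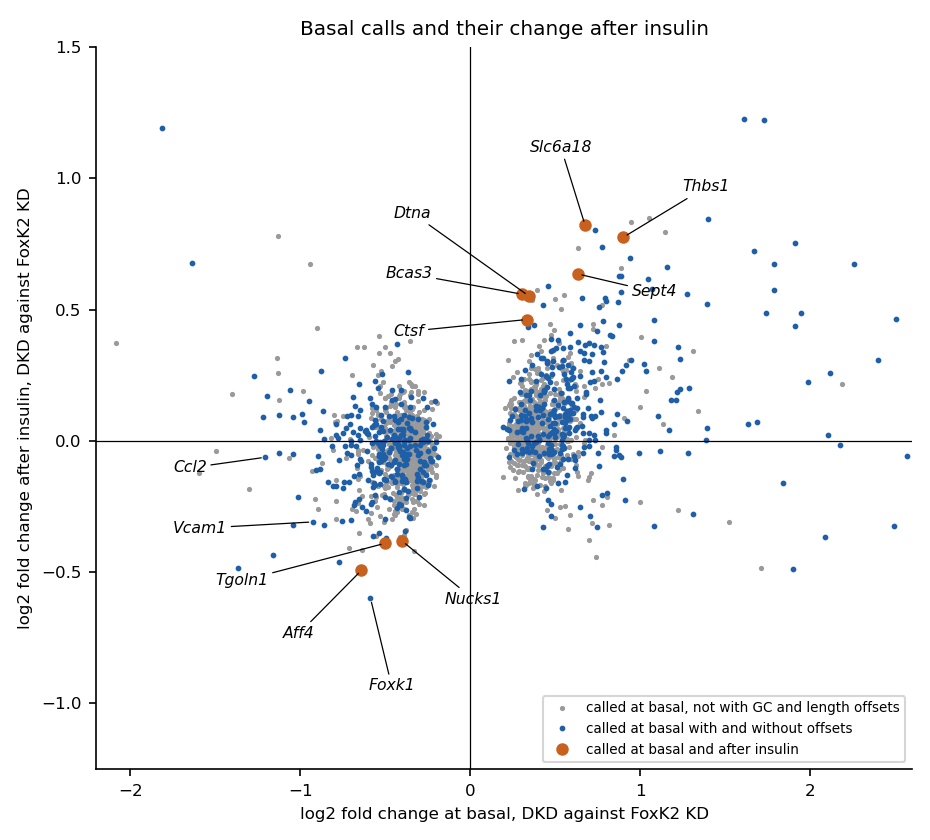
Log2 fold change of DKD against FoxK2 KD at basal (x axis) and after insulin (y axis) for the genes called at basal; grey, called only without GC and length offsets; blue, called with and without them; orange, called at basal and after insulin. Most points lie near 0 on the insulin axis, and the 9 orange genes lie at least as far from 0 after insulin as Nucks1 (−0.38); 14 called genes fall beyond the axes.

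Promoter sequence was read for these genes because FoxK1 and FoxK2 are DNA-binding factors. The full forkhead word GTAAACA, or its complement TGTTTAC, was searched on both strands in RefSeq promoters (GRCm38.p6, 300 bases spanning the start site). It was in 2.75% of the 11357 promoters of tested genes, 2.85% of those of upregulated and 3.32% of those of downregulated genes, and in 3.65% of all 32851 promoters. RefSeq promoters were matched to 8848 of the 11368 tested genes, and to 6 of the 9 genes above, and none of their promoters held it. The shorter core AAACA or TGTTT, which the full word contains, was in 34.1% of the 250-base upstream regions of tested genes, 30.8% for upregulated and 33.4% for downregulated genes. The upstream regions of the 3 genes lower in both states are shown, 5′ to 3′ towards the start site, to let their different make-up be read, with the core in capitals: Aff4 at chr11:53350517-53350766 (plus strand), Tgoln1 at chr6:72617001-72617250 (minus strand) and Nucks1 at chr1:131910208-131910457 (plus strand).
Aff4: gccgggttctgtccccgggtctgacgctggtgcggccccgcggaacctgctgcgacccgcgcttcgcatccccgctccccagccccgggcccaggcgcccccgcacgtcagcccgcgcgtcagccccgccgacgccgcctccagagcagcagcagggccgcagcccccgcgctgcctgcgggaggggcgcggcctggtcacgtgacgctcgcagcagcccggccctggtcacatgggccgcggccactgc
Tgoln1: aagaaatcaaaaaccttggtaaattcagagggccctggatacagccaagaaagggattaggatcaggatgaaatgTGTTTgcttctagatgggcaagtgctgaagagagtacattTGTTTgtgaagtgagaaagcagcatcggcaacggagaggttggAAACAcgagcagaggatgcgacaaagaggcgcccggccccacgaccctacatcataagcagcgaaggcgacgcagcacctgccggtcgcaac
Nucks1: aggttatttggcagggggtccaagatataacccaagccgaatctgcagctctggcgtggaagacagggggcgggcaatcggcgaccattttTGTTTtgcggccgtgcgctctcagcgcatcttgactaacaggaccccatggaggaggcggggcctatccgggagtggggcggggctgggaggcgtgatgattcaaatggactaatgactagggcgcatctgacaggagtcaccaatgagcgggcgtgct
The Aff4 region held no core and was 79.2% GC. The Tgoln1 region held 3, at −175, −135 and −92 from the start site, and the Nucks1 region 1, at −159. Among the named genes, 2 had the full word in a promoter, shown with 10 bases to each side: Cenpk, a kinetochore subunit gene that was lower in DKD cells (chr13:104228936-104228962, in 1 of its 3 promoters), and Foxa1, a liver pioneer factor gene that was higher (chr12:57546236-57546262).
Cenpk: agcagcgcgcGTAAACAgcgcggcttg
Foxa1: atactgctttGTAAACAaagtgagggc
A match of letters is a description of the sequence and not a measured binding site.

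Gene lists for liver, insulin and FoxK biology were then read by counts. For each list, the number of tested members called in each direction stands beside the 17% of all tested genes called. That share was 8.56% higher and 8.44% lower, and with offsets 4% higher and 3.15% lower. List members that fell outside the naming rule are introduced with "also", and were picked out after their values were seen.

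**Figure D4:**
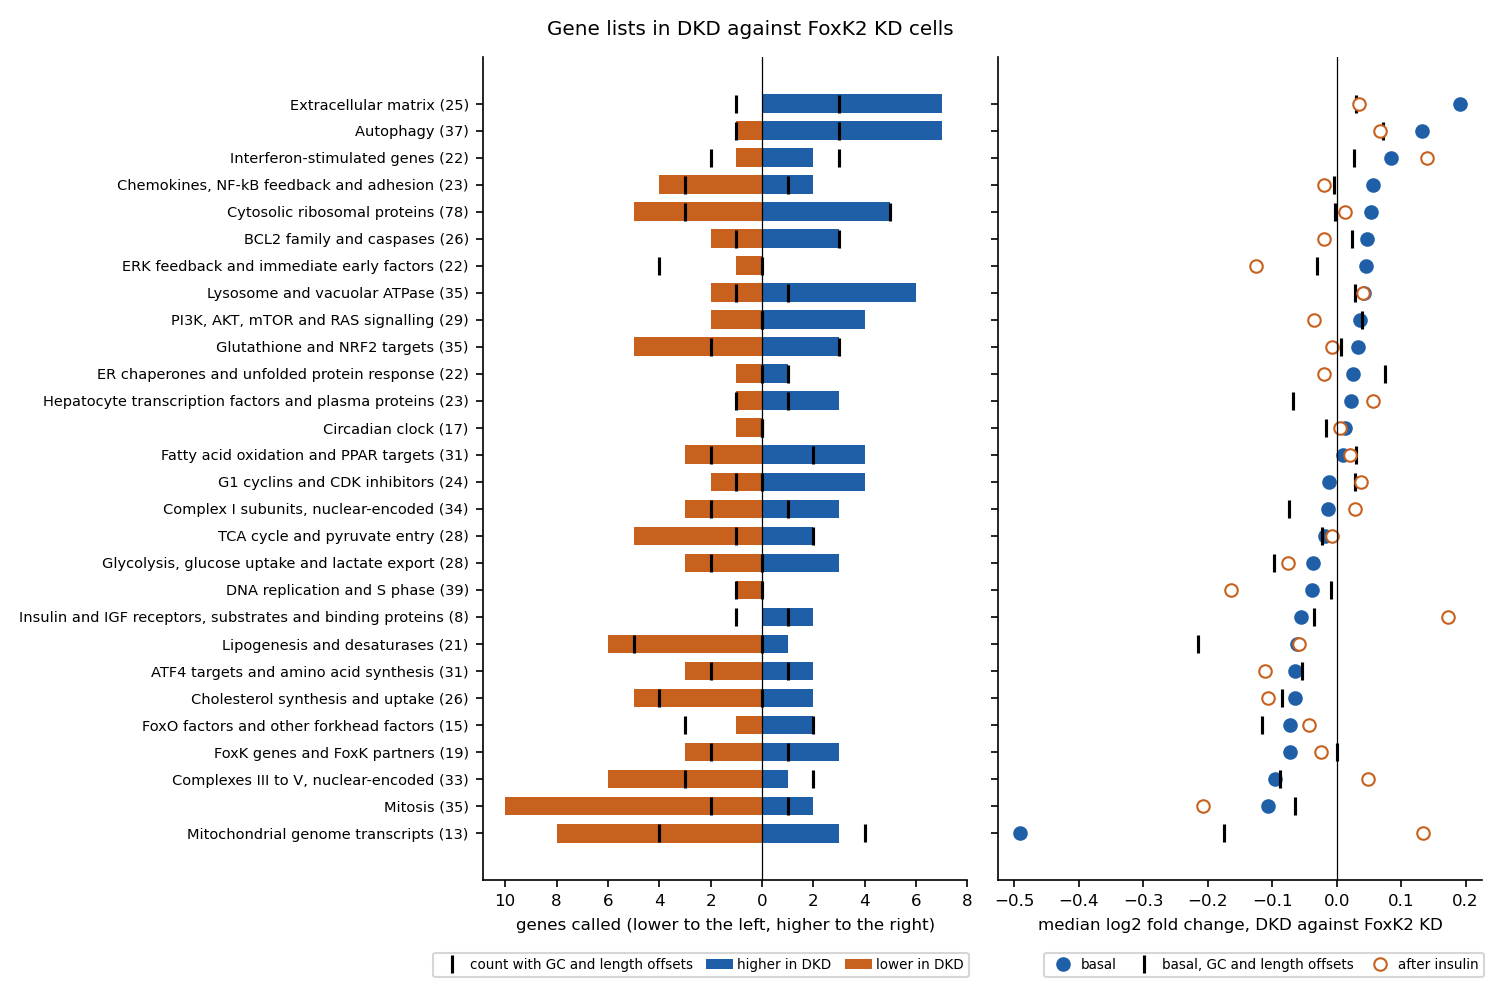
Left, number of members called lower (orange) and higher (blue) in DKD against FoxK2 KD cells at basal in 28 gene lists (members tested in brackets), with the counts under GC and length offsets as black ticks; right, median log2 fold change of each list at basal, with offsets and after insulin. Extracellular matrix genes (7 higher, 0 lower) and autophagy genes (7 higher, 1 lower) lead the top, mitochondrial transcripts (3 higher, 8 lower) and mitosis genes (2 higher, 10 lower) close the bottom, and most medians lie within 0.2 of 0.

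Leukocyte adhesion and chemokine genes included the gene with the smallest p of the comparison. Of 23 tested genes of chemokines, NF-kB feedback and adhesion, 4 fell and 2 rose (median 0.06, with offsets 0.00, after insulin −0.02). Vcam1, the adhesion receptor for leukocyte integrins (chr3:116109949-116129688), was counted at 148, 160, 160 and 166 CPM in DKD and 307, 304, 317 and 276 CPM in FoxK2 KD cells. No library overlapped, and the change was −0.93 ± 0.08 (edgeR adjusted p = 1.33e-09) and −0.70 when GC-adjusted. After insulin it was −0.31 (edgeR adjusted p = 0.247), and the difference between the states was itself called (−0.62, edgeR adjusted p = 0.00566). Ccl2, the monocyte chemoattractant (chr11:82035571-82037453), was at 665, 763, 820 and 769 CPM in DKD and 1815, 1714, 1650 and 1775 CPM in FoxK2 KD replicates. The change was −1.21 ± 0.11 (edgeR adjusted p = 8.92e-09; GC-adjusted −1.04) and −0.06 after insulin, where DKD cells stood at 724 to 907 CPM and FoxK2 KD cells at 727 to 1050 CPM. Ccl2 is one of the 83 genes higher in all 12 basal libraries of the other genotypes. Also called were Cxcl5 (−0.75, edgeR adjusted p = 3.16e-05; GC-adjusted −0.46) and Cxcl1 (−0.33, edgeR adjusted p = 0.0337; GC-adjusted −0.19), both neutrophil chemokines. Tnip1 and Relb, a brake on and a subunit of NF-kB signalling, rose by 0.60 and 0.35 (GC-adjusted 0.40 and 0.12). Relb was called in 1 of the 8 fits that each left out 1 library. Of the interferon-stimulated list (22 tested, 2 higher, 1 lower), Cxcl10, a T-cell chemokine, stood at 3.16 to 4.88 CPM in DKD and 8.24 to 9.94 CPM in FoxK2 KD cells (−1.16, edgeR adjusted p = 0.000576; GC-adjusted −1.12), while Tap1 and Ifit3b rose by 0.92 and 0.46 (GC-adjusted 0.77 and 0.59).

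Most of the called genes of fatty acid synthesis and desaturation were downregulated. Of 21 tested, 6 fell and 1 rose (median −0.06), and with offsets 5 fell and 0 rose (median −0.21). After insulin none was called (median −0.06). Scd1 encodes the stearoyl-CoA desaturase that makes monounsaturated fatty acids (chr19:44394455-44407879). It was counted at 545, 646, 625 and 600 CPM in DKD and 990, 814, 929 and 859 CPM in FoxK2 KD cells. All DKD libraries were lower, by 0.57 ± 0.08 on the log2 scale (edgeR adjusted p = 6.32e-06), and the GC-adjusted change was larger (−0.78). After insulin Scd1 was −0.36 (edgeR adjusted p = 0.0763). Its paralog Scd2 stood at 2860, 3102, 3162 and 3259 against 4415, 3907, 4310 and 4055 CPM. The groups did not overlap, for a change of −0.43 ± 0.07 (edgeR adjusted p = 5.34e-05; GC-adjusted −0.40; after insulin −0.11). Also lower were Elovl6 (−0.39, GC-adjusted −0.30), Elovl5 (−0.33, GC-adjusted −0.25), the acetyl-CoA carboxylase gene Acaca (−0.34, GC-adjusted −0.31) and the lipin gene Lpin2 (−0.31, GC-adjusted −0.25). Fasn, the fatty acid synthase gene, was at −0.02 (edgeR adjusted p = 0.887) and the lipogenic regulator gene Srebf1 at 0.17 (edgeR adjusted p = 0.212). Fads3 was the gene of this list that rose (0.26, GC-adjusted 0.13), and it was called in 2 of the 8 fits that left out a library.

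Of 26 tested genes of cholesterol synthesis and uptake, 5 fell and 2 rose, and with offsets 4 fell and 0 rose (median −0.07, with offsets −0.09, after insulin −0.11). Sc5d, which acts late in the pathway, was at 95.9, 99.2, 107 and 110 CPM in DKD and 157, 148, 137 and 129 CPM in FoxK2 KD cells. It did not overlap and fell by 0.47 ± 0.10 on the log2 scale (edgeR adjusted p = 0.00106; GC-adjusted −0.34; after insulin −0.22). Hsd17b7, a sterol ketoreductase, stood at 117, 127, 123 and 127 against 172, 151, 156 and 156 CPM, a change of −0.36 ± 0.07 (edgeR adjusted p = 0.00114). With offsets it was −0.33, and after insulin −0.29 (edgeR adjusted p = 0.187). Also lower were the sterol reductase gene Dhcr7 (−0.28, edgeR adjusted p = 0.00569) and the sterol carrier gene Stard4 (−0.23). Fdps, of the isoprenoid steps, rose by 0.35 and was not called with offsets.

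The extracellular matrix genes that were called were all higher at basal without offsets: of 25 tested, 7 rose and 0 fell (median 0.19), and 9 of the 25 had fold changes below 0. With offsets 3 rose and 1 fell, and the median was 0.03, as it was after insulin. Beside Thbs1, Lamb3, the beta chain of laminin-332, stood at 95, 106, 96.7 and 103 CPM in DKD and 75.3, 68.7, 66.1 and 66.6 CPM in FoxK2 KD cells. It rose by 0.54 ± 0.08 without overlap (edgeR adjusted p = 3.28e-05; GC-adjusted 0.43) and was 0.00 after insulin, a difference that was called (0.54, edgeR adjusted p = 0.0178). Also higher were the laminin genes Lamb1 (0.49, GC-adjusted 0.55), Lamb2 (0.37, GC-adjusted 0.13) and Lama5 (0.31, GC-adjusted 0.07), and the matricellular genes Ccn1 (0.43, GC-adjusted 0.36) and Sparc (0.22, GC-adjusted 0.10).

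Mitochondrially encoded transcripts moved in both directions. Of 13 tested, 8 fell and 3 rose, 84.6% of the list, with a median of −0.49. The GC-adjusted median was −0.17 (4 higher, 4 lower), and after insulin it was 0.13 with none called. mt-Nd4, a core subunit gene of complex I, was counted at 428, 623, 649 and 549 CPM in DKD and 1276, 1241, 1225 and 1158 CPM in FoxK2 KD libraries. The groups were well separated, at −1.13 ± 0.16 (edgeR adjusted p = 1.74e-05; GC-adjusted −0.75), but not after insulin (−0.05), where FoxK2 KD libraries held 515 to 690 CPM. The 12S ribosomal RNA mt-Rnr1 was at 158, 203, 182 and 302 against 546, 441, 497 and 460 CPM, a change of −1.19 ± 0.20 (edgeR adjusted p = 9.68e-05; GC-adjusted −0.84), and 0.17 after insulin. mt-Nd6, the complex I gene on the other strand, stood at 120, 171, 143 and 156 against 250, 270, 213 and 187 CPM. It fell by 0.64 on the log2 scale (edgeR adjusted p = 0.000238), with a GC-adjusted value of −0.23 (edgeR adjusted p = 0.364), and is among the 83 genes higher in the other 12 basal libraries. mt-Co2 and mt-Co3, subunit genes of complex IV, were at 6.94 to 18.1 and 5.55 to 15.4 CPM in DKD against 1.18 to 4.62 and 0.926 to 4.40 CPM in FoxK2 KD cells, and rose by 1.99 and 2.26 (GC-adjusted 2.28 and 2.54). Nuclear genomes hold copies of mitochondrial sequence, and how shared reads were assigned is not given in the sources used here. The mitochondrial share of all counts was 0.991% to 1.26% in DKD and 1.60% to 1.79% in FoxK2 KD libraries.

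Nuclear-encoded respiratory genes were mixed. Of 33 tested genes of complexes III to V, 6 fell and 1 rose (median −0.10, with offsets −0.09, after insulin 0.05). Uqcr10, a small complex III subunit, stood at 50, 40.7, 53.7 and 58.5 CPM in DKD and 63.0, 78.6, 85.2 and 107 CPM in FoxK2 KD cells. The groups did not overlap (−0.73 ± 0.16, edgeR adjusted p = 0.00255; GC-adjusted −0.83), and the value was −0.05 after insulin. Cox7b of complex IV fell alike (−0.73 ± 0.14, edgeR adjusted p = 0.000514; GC-adjusted −0.51; after insulin 0.10). Atp5g2, a gene of the ATP synthase c subunit, rose by 0.70 (edgeR adjusted p = 0.00139; GC-adjusted 0.50; after insulin 0.03). Of 34 complex I genes 3 rose and 3 fell: Ndufb7 was at 51.4, 46.0, 51.8 and 67.8 against 21.3, 30.4, 29.4 and 21.3 CPM (1.08 ± 0.22, edgeR adjusted p = 0.000887; GC-adjusted 0.90), and Ndufa5 at 19.8, 18.9, 19.9 and 22.6 against 33.3, 29.4, 35.7 and 40.7 CPM (−0.77 ± 0.17, edgeR adjusted p = 0.00171; GC-adjusted −0.76). In the TCA cycle and pyruvate entry, 5 of 28 genes fell and 2 rose. Mpc2, a part of the mitochondrial pyruvate carrier, was lower (32.2, 47.1, 41.2 and 42.6 against 69.1, 66.1, 51.4 and 62.2 CPM; −0.60 ± 0.12, edgeR adjusted p = 0.000937; GC-adjusted −0.42; after insulin 0.03), as was the dehydrogenase gene Dld (−0.42, GC-adjusted −0.15), while Sdha and Dlst rose by 0.23 and 0.26 (GC-adjusted 0.23 and 0.34). Dlst was called in 1 of the 8 fits that left out a library.

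In glycolysis, glucose uptake and lactate export, 3 of 28 genes rose and 3 fell (median −0.04). Pyruvate dehydrogenase kinases, which hold pyruvate back from the TCA cycle, went both ways. Pdk1 was at 50.2, 54.4, 52.8 and 52.1 CPM in DKD and 65.1, 63.8, 77.2 and 71.7 CPM in FoxK2 KD cells, without overlap (−0.41 ± 0.09, edgeR adjusted p = 0.00134; GC-adjusted −0.33; after insulin −0.24). Pdk3 fell by 0.58 (edgeR adjusted p = 0.00367; GC-adjusted −0.33) and Pdk2 rose by 0.40 (edgeR adjusted p = 0.00332; GC-adjusted 0.20). The enolase gene Eno1 rose by 0.36 at basal (GC-adjusted 0.19) and was −0.14 after insulin, a called difference (0.49, edgeR adjusted p = 0.0476). It is among the 52 genes lower in the other 12 basal libraries. Of 31 genes of fatty acid oxidation and PPAR targets, 4 rose and 3 fell (median 0.01). Angptl4, an inhibitor of lipoprotein lipase, stood at 27.0, 27.1, 30.1 and 24.9 against 13.3, 19.3, 17.3 and 17.8 CPM (0.66 ± 0.14, edgeR adjusted p = 0.00161; GC-adjusted 0.50; after insulin 0.09). The peroxisomal thiolase gene Acaa1a rose by 0.52 (GC-adjusted 0.28).

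Most of the called autophagy genes were upregulated. Of 37 tested, 7 rose and 1 fell (median 0.13), 21.6% of the list and near the 17% of all tested genes. With offsets 3 rose and 1 fell (median 0.07). After insulin none was called (median 0.07). Atg7, the E1-like enzyme that activates the LC3 family (chr6:114643097-114860614), was counted at 159, 154, 155 and 166 CPM in DKD and 92.3, 99.3, 119 and 115 CPM in FoxK2 KD cells. All DKD libraries were above all FoxK2 KD libraries (0.57 ± 0.09, edgeR adjusted p = 4.5e-05; GC-adjusted 0.46; after insulin 0.15). Ulk1, the kinase that starts autophagosome formation, stood at 92.2, 104, 106 and 101 against 74.4, 73.2, 73.1 and 72.1 CPM. It rose by 0.46 ± 0.09 (edgeR adjusted p = 0.000571), with a GC-adjusted value of 0.27 (edgeR adjusted p = 0.0777). Wdr45, a phosphoinositide-binding autophagy factor, rose by 0.39 (edgeR adjusted p = 0.0303; GC-adjusted 0.23; after insulin 0.57, edgeR adjusted p = 0.204). It was called in 4 of the 8 fits that each left out 1 library. Also higher were Becn1 (0.51, GC-adjusted 0.45), Map1lc3a (0.72, GC-adjusted 0.48), Map1lc3b (0.32, GC-adjusted 0.22) and Wipi1 (0.27, GC-adjusted 0.18). Gabarap, an LC3-family gene, was at 373, 352, 372 and 336 against 432, 493, 493 and 423 CPM and fell by 0.36 on the log2 scale (edgeR adjusted p = 0.0182; GC-adjusted −0.38; after insulin 0.09). It is also among the 83 genes. In the lysosomal list, 6 of 35 genes rose and 2 fell, and 1 and 1 with offsets. Psap, the saposin precursor gene, was at 1857 to 2066 CPM in DKD and 1481 to 1601 CPM in FoxK2 KD cells (0.32, GC-adjusted 0.20), and the proton pump gene Atp6v1d fell by 0.39 (GC-adjusted −0.18).

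Among mitosis genes, 10 of 35 fell and 2 rose (median −0.11), but with offsets 2 fell and 1 rose (median −0.06). The list's median GC content was 46.1%, below that of all genes. After insulin its median was −0.21 with none called. Hmmr, a spindle-associated hyaluronan receptor gene, stood at 60.0, 72.1, 52.8 and 82.9 CPM in DKD and 112, 98.1, 92.9 and 104 CPM in FoxK2 KD cells. The groups did not overlap (−0.59 ± 0.13, edgeR adjusted p = 0.00272; GC-adjusted −0.37, edgeR adjusted p = 0.0496). The checkpoint gene Mad2l1 fell by 0.42 (GC-adjusted −0.22), and the Aurora kinase genes Aurkb and Aurka rose by 0.46 and 0.38 (GC-adjusted 0.41 and 0.35). Of the 8 fits that each left out 1 library, Aurkb was called in 5 and Aurka in 2. Among 39 genes of DNA replication 1 was called, Pola1 of DNA polymerase alpha (−0.36, GC-adjusted −0.13). Of 24 G1 cyclins and CDK inhibitors, 4 rose and 2 fell. Ccnd1, cyclin D1, was at 735, 665, 649 and 721 against 514, 533, 518 and 550 CPM. It rose by 0.39 ± 0.08 without overlap (edgeR adjusted p = 0.000593), with values of 0.20 when GC-adjusted (edgeR adjusted p = 0.145) and 0.17 after insulin. Cdkn1b, the p27 inhibitor gene, stood at 169, 185, 192 and 194 against 278, 264, 278 and 267 CPM, a change of −0.56 ± 0.10 (edgeR adjusted p = 0.000303; GC-adjusted −0.36; after insulin −0.12). It averaged 266 and 270 CPM in Control and FoxK1 KD basal libraries, and 166 to 193 CPM in the insulin-treated groups. DKD basal libraries thus sat with the insulin-treated ones, though the gene is outside the 83. Cdkn2a rose by 0.62 (GC-adjusted 0.38, edgeR adjusted p = 0.105).

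Of 26 genes of the BCL2 family and caspases, 3 rose and 2 fell (3 and 1 with offsets). Bnip3, which encodes a mitophagy receptor, was at 23.5, 20.4, 21.3 and 25.9 CPM in DKD and 41.1, 33.4, 40.6 and 39.3 CPM in FoxK2 KD cells. It fell by 0.75 ± 0.15 on the log2 scale without overlap (edgeR adjusted p = 0.0011; GC-adjusted −0.76; after insulin −0.18). The anti-apoptotic gene Bcl2l1 rose by 0.38, and Xiap, an inhibitor of caspases, fell by 0.42, neither called with offsets.

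Among 19 FoxK genes and partners, 3 rose and 3 fell (1 and 2 with offsets). Sin3b, a scaffold of the co-repressor that FoxK proteins recruit, was at 92.7, 81.2, 92.1 and 75.5 CPM in DKD and 49.1, 60.7, 60.7 and 61.1 CPM in FoxK2 KD cells. It did not overlap (0.55 ± 0.11, edgeR adjusted p = 0.00088; GC-adjusted 0.38; after insulin 0.02). Bap1 rose by 0.36 (GC-adjusted 0.20), and Ogt, the O-GlcNAc transferase gene, stood at 227, 273, 275 and 280 against 422, 369, 319 and 389 CPM (−0.51 ± 0.14, edgeR adjusted p = 0.0102; GC-adjusted −0.33, edgeR adjusted p = 0.103). Sap30, of the Sin3 complex, was also lower (−0.38; GC-adjusted −0.47). Of 15 FoxO and other forkhead genes, 2 rose and 1 fell. Foxa1 stood at 21.8, 23.0, 23.6 and 21.1 against 16.4, 12.7, 15.6 and 12.5 CPM (0.65 ± 0.13, edgeR adjusted p = 0.000791; GC-adjusted 0.41; after insulin 0.44, edgeR adjusted p = 0.5). Foxj2 rose by 0.55 (GC-adjusted 0.43) and Foxp1 fell by 0.31 (GC-adjusted −0.41).

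Of 29 genes of PI3K, AKT, mTOR and RAS signalling, 4 rose and 2 fell, and 0 of either with offsets. Pik3r2 and Pik3ca, a regulatory and the catalytic subunit of PI3-kinase, were at 0.48 and −0.35, with GC-adjusted values of 0.23 and −0.06. Of 8 receptors, substrates and binding proteins, Irs1 (34.5, 26.2, 31.0 and 27.5 against 22.5, 20.5, 24.9 and 25.1 CPM; 0.35 ± 0.12, edgeR adjusted p = 0.047; GC-adjusted 0.41) and Igfbp7 (0.38, GC-adjusted 0.13) rose, Irs1 being called in 2 of the 8 fits that left out a library. Of 22 immediate early and ERK feedback genes 1 fell, Klf6 (−0.32, GC-adjusted −0.27), and 4 with offsets.

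In the glutathione and NRF2 list, 3 of 35 genes rose and 5 fell. Gpx4, the lipid peroxide reductase gene, was at 94.5, 112, 111 and 101 CPM in DKD and 145, 171, 143 and 140 CPM in FoxK2 KD cells. It fell by 0.52 ± 0.12 on the log2 scale without overlap (edgeR adjusted p = 0.00354; GC-adjusted −0.76; after insulin 0.10). The glutathione transferase gene Gstm1 stood at 135, 102, 146 and 118 against 63.0, 97.4, 86.5 and 83.1 CPM, a change of 0.59 ± 0.11 (edgeR adjusted p = 0.000571; GC-adjusted 0.47; after insulin 0.41, edgeR adjusted p = 0.377). Gstm2 rose by 0.66 (GC-adjusted 0.63), and the UDP-glucose dehydrogenase gene Ugdh fell by 0.42 (GC-adjusted −0.30). Members of the Gstm family share sequence, so that reads may be divided between them. Of 31 ATF4 targets and amino acid synthesis genes, 2 rose and 3 fell. Asns, asparagine synthetase, was at 127, 138, 155 and 144 against 177, 181, 187 and 185 CPM (−0.38 ± 0.09, edgeR adjusted p = 0.00261; GC-adjusted −0.36; after insulin −0.22). Slc3a2, the heavy chain of amino acid exchangers, rose by 0.47 (GC-adjusted 0.30) and the serine hydroxymethyltransferase gene Shmt2 by 0.45 (GC-adjusted 0.22). Of 22 ER chaperone and unfolded protein response genes, Syvn1 rose (0.32) and Atf6 fell (−0.33), and neither was called with offsets (0.14 and −0.13). Atf6 was called in 2 of the 8 fits that left out a library.

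Of 23 hepatocyte transcription factors and plasma proteins, 3 rose and 1 fell. Hnf4a was also called (0.26, GC-adjusted 0.10), and Ambp rose by 0.46 (GC-adjusted 0.33). Of 17 clock genes Nr1d2 fell (−0.27, GC-adjusted −0.14), and it is among the 83 genes. Among 78 cytosolic ribosomal protein genes, 5 rose and 5 fell (median 0.05, with offsets 0.00). Rpl37a fell by 0.71 ± 0.10 (83.8, 82.3, 82.4 and 80.1 against 125, 144, 122 and 145 CPM; edgeR adjusted p = 2.38e-05; GC-adjusted −0.69; after insulin 0.06) and Rps3 rose by 0.44 (GC-adjusted 0.47). Rpl37a stood at 114 to 176 CPM in Control and FoxK1 KD basal libraries and at 80.9 to 123 CPM in insulin-treated libraries. Ribosomal protein genes have many processed pseudogenes that share their sequence. Of the markers of other cells, Csf1r (0.64, GC-adjusted 0.52; after insulin 0.73, edgeR adjusted p = 0.612) and Krt7 (0.55, GC-adjusted 0.39; after insulin 0.56, edgeR adjusted p = 0.492) were higher, and neither was called with offsets. The median of the 5 tested biliary markers, Krt7 included, was −0.23. Of 5 tested histone genes, many of which give transcripts without a polyA tail, Hist1h2bc (0.74, GC-adjusted 0.84) and H2afx (0.70, GC-adjusted 0.46) were called, and stood at 0.80 and −0.38 after insulin.

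Many of the largest increases were in genes with low counts or copies, while the largest decreases also held abundant genes such as Ccl2, mt-Nd4 and Psma1. Among annotated pseudogenes 51 of 251 rose and 4 fell (median 0.30, with offsets 0.35, after insulin 0.05), against 912 and 934 of 10688 protein-coding genes. Rpl36a-ps1, a retrocopy listed as protein coding, was at 14.9, 5.24, 8.33 and 7.96 CPM in DKD and 0, 0.941, 0 and 0.220 CPM in FoxK2 KD cells (4.78 ± 0.80, edgeR adjusted p = 0.000109; GC-adjusted 4.92; after insulin 1.32, edgeR adjusted p = 0.711). Gm42939, a sense intronic transcript (chr3:101407793-101409997), had 126 counts in the DKD libraries and 0 in the FoxK2 KD libraries, at least 53.9-fold higher when the latter are set at 3 counts over the group. It was detected in all 14 insulin-treated libraries, at 4.42 to 13.5 CPM, and its value after insulin was 0.02. Gm43712, an unprocessed pseudogene, was higher (17.8, 6.98, 5.09 and 11.0 against 0.926, 0.941, 1.73 and 1.98 CPM; GC-adjusted 3.06; after insulin 0.03), and the small nucleolar RNA Snord49a was lower (2.87, 4.36, 6.48 and 8.73 against 28.1, 16, 14.5 and 22.0 CPM; −1.81 ± 0.49, edgeR adjusted p = 0.0104; GC-adjusted −1.78; after insulin 1.19). Among other protein-coding genes, Emc8, of the ER membrane protein complex, was at 50.5, 39.0, 46.3 and 35.7 against 16.4, 21.9, 21.4 and 18.5 CPM (1.12 ± 0.18, edgeR adjusted p = 8.77e-05; GC-adjusted 0.88; after insulin −0.04). Psma1, a proteasome alpha subunit gene, stood at 157, 174, 189 and 193 against 395, 320, 378 and 376 CPM (−1.04 ± 0.11, edgeR adjusted p = 2.01e-07; GC-adjusted −0.88; after insulin −0.05). The remaining genes with the largest changes were Tpm3-rs7, Ftl1-ps1, Nthl1, Crocc2 and Shroom3, higher by 1.04 to 1.64, and Kyat3, Ifi202b, Cyp2c68, Pstk, Cenpk and Snrnp48, lower by −1.22 to −0.99; all 11 stood between −0.21 and 0.58 after insulin, none called. Gm42939, Gm43712, Ftl1-ps1 and Snrnp48 are among the 52 and 83 genes that separated the other 12 basal libraries. Psma1 is not, but it averaged 333 and 281 CPM in Control and FoxK1 KD basal libraries. In the insulin-treated groups it averaged 197 to 217 CPM, nearer to the DKD basal libraries.

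A list of 12 genes was taken from those the study names for DKD cells. The study also names others, several respiratory genes above among them. All were chosen on these samples, so their direction here is no independent evidence. Separately, the study reported that deleting FoxK1 in mouse liver lowered Vcam1, Aff4 and Tgoln1 mRNA and raised Mcam, Adgrg1 and Sgk1 mRNA. Of the 12, 5 rose and 6 fell here, and 1 and 5 with offsets. Beside those described above, Adgrg1, an adhesion receptor gene, was at 109, 106, 106 and 111 CPM in DKD and 83.7, 77.7, 76.5 and 72.3 CPM in FoxK2 KD cells (0.48 ± 0.08, edgeR adjusted p = 0.000127; GC-adjusted 0.29; after insulin 0.25). Mcam, another adhesion molecule gene, stood at 2.78 to 6.42 CPM in DKD and 1.73 to 3.08 CPM in FoxK2 KD cells, with overlap (1 ± 0.29, edgeR adjusted p = 0.0152; GC-adjusted 0.86), and Alpl, alkaline phosphatase, rose by 0.36 (edgeR adjusted p = 0.0395; GC-adjusted 0.17), a call made in 1 of the 8 fits that left out a library. Sgk1, a kinase downstream of PI3-kinase, was at 0.22 ± 0.10 (edgeR adjusted p = 0.132).

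The effect of FoxK1 knockdown was also measured where FoxK2 was not targeted. FoxK1 KD against Control cells gave 385 genes higher (3.39%) and 535 lower (4.71%) at basal, 8.09% in all, in 8 other libraries. Both comparisons called 208 genes, 157 of them in the same direction (83 higher, 74 lower), which is 8.12% of the calls in DKD against FoxK2 KD and 17.1% of those in FoxK1 KD against Control. The genes called in DKD against FoxK2 KD had the same sign in 50.8% of cases, against 47.7% of all tested genes. The correlation of the fold change with GC content was −0.22 in FoxK1 KD against Control, opposite to the 0.57 here. Single libraries differed in it: Control replicate 1 deviated with a correlation of 0.18 and the other Control basal libraries with −0.30 to −0.23. FoxK1 KD replicate 2 stood at −0.50 and the other FoxK1 KD basal libraries at −0.25 to −0.20. With offsets in both comparisons, 128 genes were called in the same direction (67 higher, 61 lower). Tested directly, the effect of FoxK1 knockdown differed with and without FoxK2 knockdown for 1405 genes (12.4%; 773 upwards, 6.8%, and 632 downwards, 5.56%) and, with offsets, for 298. Leaving out Control replicate 1 gave 897 such genes without offsets, and 408 genes called in FoxK1 KD against Control.

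Several genes described above were called in the same direction with and without FoxK2 knockdown. In FoxK1 KD against Control cells, Vcam1 was −1.04, Scd1 −0.88, Tgoln1 −0.61, Aff4 −0.48, Slc6a18 0.55 and Ccnd1 0.68, all called. For Vcam1 the Control libraries stood at 271 to 351 CPM and the FoxK1 KD libraries at 132 to 152 CPM. Thbs1 (1.45 against 0.90) and Sept4 (1.08 against 0.63) rose in both comparisons and by more where FoxK2 was not targeted, with called differences of −0.55 and −0.45 (edgeR adjusted p = 0.0261 and 0.0346). Without offsets, Foxk1 itself was lowered less on top of FoxK2 knockdown (difference 0.55, edgeR adjusted p = 0.031). Its change in DKD against FoxK2 KD was −0.59, and −0.80 when GC-adjusted, and the difference is not given with offsets. Ccl2 (−0.13), mt-Nd4 (0.26) and Psma1 (−0.25) were not called in FoxK1 KD against Control, and their differences were (−1.07, −1.38 and −0.79). A set of 40 genes was called here with and without offsets, called in FoxK1 KD against Control in the same direction, and had the same direction at an unadjusted p below 0.05 after insulin, 27 higher and 13 lower. The set was formed after the values were seen. Beside those above it holds Creb5, a CREB-family factor gene (−0.77), Slc25a13, the mitochondrial aspartate-glutamate carrier gene (−0.36), Lbp, the lipopolysaccharide-binding protein gene (0.39), Aqp1, a water channel gene (0.77), Notch3 (0.67), Wnt7a (0.94) and Fxyd2, a Na,K-ATPase regulator gene (0.89).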

How the data were processed

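RNA-seq counts per gene were compared between 4 DKD and 4 FoxK2 KD basal libraries of AML12 cells. The authors deposited whole-number counts per Ensembl gene, and the submitters' processing notes name CASAVA 1.8, STAR 2.4.2a, featureCounts and GRCm38.p4, without the strand setting. Of 49089 identifiers, 48435 were named from GENCODE M21. Genes passing filterByExpr (11368) were fitted with TMM factors in 1 model of 8 groups and 30 libraries (edgeR 4.0.16, quasi-likelihood test, Benjamini-Hochberg adjustment). CPM used TMM-scaled library sizes. GC and length offsets came from natural splines on each library's log2 CPM deviations.

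The members and gene lists were chosen with earlier results of these data known. Named genes were Foxk1 and Foxk2, the 10 protein-coding genes changed most in each direction (adjusted p below 0.05, mean of at least 4 CPM, no overlap), up to 6 in each direction called at basal and after insulin, up to 2 called members per list and direction with the smallest p, the 2 other genes changed most in each direction, and a list of 12 genes taken from those the study names. Same-numbered DKD and FoxK2 KD libraries deviated with correlations of −0.066 to 0.069, and differently numbered ones with −0.111 to 0.074. No pairing was seen, so the main model used none, but such values cannot exclude that same-numbered samples were handled together. Alternatives were DESeq2 1.42.0, limma-voom 3.58.1, other filters, thresholds and samples, a replicate block and leaving out libraries. On simulated data of the basal comparison (11368 genes) edgeR recovered 54% of 50 genes changed 1.5-fold and 92% of those changed 2-fold, with 8.06% of its calls false. The simulated counts held no GC trend of single libraries, so these rates do not describe the 1933 basal calls. Library totals, 2141460 to 5668270 counts over the series, limit precision for low genes. Intervals and p-values cover these libraries only. Some named genes and list members are not reported here, and the list counts include them.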

Additional observations from a re-analysis of the deposited data

Results flagged for a closer look

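A single library stood apart from the other 3 of its group (Dixon's test) in 13 of 244 checks of the named genes, where chance gives about 1 in 20. These were Crocc2 (6.02 CPM in DKD replicate 3), Sept4 (87 CPM in DKD replicate 1), Aff4 (486 CPM in FoxK2 KD replicate 1), Sin3b (49.1 CPM in FoxK2 KD replicate 1), Ogt (227 CPM in DKD replicate 1), Foxp1 (139 CPM in FoxK2 KD replicate 2) and Pik3ca (177 CPM in FoxK2 KD replicate 1). Further ones were Pola1 (87.7 CPM in FoxK2 KD replicate 1), Acaa1a (52.8 CPM in FoxK2 KD replicate 1), Sdha (325 CPM in FoxK2 KD replicate 2), Tap1 (7.27 CPM in DKD replicate 2), Tap1 (6.35 CPM in FoxK2 KD replicate 2) and Tnip1 (81.9 CPM in FoxK2 KD replicate 2).

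For 18 named genes the effect of the double knockdown differed between basal and insulin (edgeR's quasi-likelihood test of the interaction). The difference of log2 fold changes, basal minus insulin, was positive for Ftl1-ps1 (1.33), Emc8 (1.16), Eno1 (0.49), Lamb3 (0.54), H2afx (1.08), Gm42939 (8.12) and Gm43712 (2.83). It was negative for Kyat3 (−1.31), Ccl2 (−1.14), mt-Nd4 (−1.08), Psma1 (−0.99), Snrnp48 (−1.09), Cox7b (−0.82), mt-Rnr1 (−1.36), Atp6v1d (−0.58), Vcam1 (−0.62), Rpl37a (−0.77) and Snord49a (−3). The value for Gm42939 rests on a group at 0 counts and is no measure of size.

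For 57 named genes the effect of FoxK1 knockdown at basal differed with and without FoxK2 knockdown (edgeR's quasi-likelihood test of the interaction). With minus without, the difference of log2 fold changes was positive for the genes that follow. These included Foxk1 (0.55), Rpl36a-ps1 (5.86), Tpm3-rs7 (2.05), Ftl1-ps1 (1.23), Emc8 (1.21), Ndufb7 (1.48), Sin3b (0.59), Pik3r2 (0.52), Map2k2 (0.43), Aurkb (0.97) and Aurka (0.55). Others above 0 were Fdps (0.67), Acaa1a (0.74), Angptl4 (0.88), Eno1 (0.65), Sdha (0.33), Dlst (0.38), Ndufv1 (0.62), Atp5g2 (1.14), Psap (0.51), Atp6v0b (0.67) and Slc3a2 (0.65). Others above 0 were Shmt2 (1.07), Syvn1 (0.48), Tnip1 (0.45), Relb (1), Lamb3 (0.66), Rps3 (0.65), H2afx (0.88) and Gm43712 (3.23). It was negative for a further group. Among these were Kyat3 (−0.95), Ccl2 (−1.07), Cyp2c68 (−1.27), mt-Nd4 (−1.38), Pstk (−1.02), Psma1 (−0.79), Cenpk (−0.83), Snrnp48 (−0.99), Thbs1 (−0.55), Sept4 (−0.45) and Ogt (−0.67). Others below 0 were Pik3ca (−0.58), Gsk3b (−0.37), Hmmr (−0.63), Cdkn1b (−0.57), Xiap (−0.7), Sc5d (−0.39), Mpc2 (−0.71), Ndufv2 (−0.39), Cox7b (−0.71), Uqcr10 (−0.78) and mt-Rnr1 (−1.31). Others below 0 were Atp6v1d (−0.42), Lamp2 (−0.39), Gpx4 (−0.54), Rpl37a (−0.44) and Snord49a (−2.63). Both differences touch the 12 libraries described above, and whether they follow genotype cannot be told apart from what those libraries share.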

How the results depend on the processing

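At basal, the 973 higher and 960 lower genes became 2373 and 2226 at an adjusted p below 0.25, 237 and 134 at a fold above 1.5, and 1332 and 1531 with only the 8 libraries fitted. With GC and length offsets and no replicate block they were 455 and 358, and with offsets and the block 406 and 337. The block alone gave 903 and 909, and whether the replicate numbers pair the samples is not known. Leaving out 1 library gave 511 to 905 higher and 542 to 968 lower genes, lowest without DKD replicate 1 (511 and 542) and without FoxK2 KD replicate 1 (596 and 618). In these 8 fits Fdps, Syvn1, Shmt2, Klf6 and Foxp1 were called in 4, and Mcam, Sdha, Xiap and Krt7 in 5. The higher share of calls was 50.3%, with a range of 44.4% without a filter to 56% with offsets. Foxk2 (0.08) turned to −0.07 with offsets, with the block (−0.0667) and without it (−0.0695), and was called in none of these.

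After insulin, the 11 higher and 4 lower genes became 27 and 21 at an adjusted p below 0.25, 6 and 1 at a fold above 1.5, 8 lower with DESeq2, and 8 higher and 2 lower with the block. Leaving out 1 library gave 2 to 6 higher and 0 to 2 lower genes. FoxK1 KD against Control gave 3028 calls at 0.25, 237 at a fold above 1.5 and 408 without Control replicate 1. The difference of basal and insulin effects gave 1138 calls at 0.25, 220 with DESeq2 and 47 with offsets. The difference with and without FoxK2 knockdown gave 4195 calls at 0.25, 685 at a fold above 1.5, 298 with offsets and 897 without Control replicate 1. The causes were not tested. Of 124 named genes other than Foxk1 and Foxk2, all but Sgk1 were called. With offsets 50 lost their call, and 54 with offsets and block. The calls lost were 15 with DESeq2, 13 with the 16 basal libraries alone, 11 without a filter, 3 with the block and 1 with limma-voom. Of the 113 left without the genes that set the 12 libraries apart, 3 lost their call. Leaving out 1 library lost 7 to 30 calls, and none of the 124 changed sign in these settings.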

Other observations

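After insulin, 6 genes were called in DKD against FoxK2 KD cells that were not called at basal, and they are named here because the list is short and was seen with its values. Serpina1a, an alpha-1 antitrypsin gene (0.66), Ppbp, a platelet chemokine gene (0.64), Fbxo32, the atrophy-related ubiquitin ligase gene atrogin-1 (0.62), Deptor, an mTOR inhibitor gene (0.52), and Inpp5k, a phosphoinositide phosphatase gene (0.45), were higher. Sprr1a, a cornified envelope precursor gene, was lower (−0.97). Serpina1a has near-identical paralogs in the mouse, so that its reads may be divided among them.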
